A study of Mus musculus with 45 samples.

Results

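Myc and 6 partner genes of its dimerization network, Max, Mxd1, Mxd3, Mxd4, Mxi1 and Mnt, were followed through a culture series of mouse splenic B cells. The 7 members were taken by gene symbol from the 30317 genes of the deposited expression table. The rule used none of their values, but earlier results of these data were known when it was set. All 7 reached the level needed for testing. Follicular B cells of genotype B6.Blimp1GFP/+, the genotype of every group, were cultured on OP9 stroma or on OP9-DL1 stroma, which carries the Notch ligand Delta-like 1. These are called OP9 cells and DL1 cells here. On each stroma the cells received LPS from Salmonella enterica, which acts through Toll-like receptor 4, or anti-IgM F(ab)'2, which binds the B cell receptor, each at 10 µg/mL, and were collected at 20, 44 and 68 h. Unstimulated cells were collected at 68 h on each stroma. A further group holds Blimp1+ cells of DL1 cultures with LPS, for which the labels give no time. There are 15 groups of 3 libraries, 45 in all, and neither age nor sex of the mice is given in the sources used here.

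MYC is a transcription factor that drives growth, ribosome building and metabolism in activated lymphocytes. It binds DNA as a dimer with MAX, at a short sequence called the E-box. The MXD proteins (MXD1, MXD3, MXD4 and MXI1) and MNT form dimers with the same MAX protein at the same sequence, recruit SIN3 and histone deacetylases, and repress. In resting and terminally differentiating cells MXD proteins are known to be favoured, and Blimp1, the product of Prdm1, is a known repressor of Myc in plasma cell formation. The values below are RNA levels, so they say nothing of protein, dimers or DNA binding.

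The members lie on 7 different chromosomes of the mouse genome (GRCm38.p6, RefSeq gene spans). Myc spans chr15:61985341-61990361 on the plus strand, Max chr12:76937269-76962323 on the minus strand and Mnt chr11:74830806-74845725 on the plus strand. Mxd1 spans chr6:86647044-86669234, Mxd3 chr13:55325170-55329900 and Mxd4 chr5:34176580-34187710, all on the minus strand, and Mxi1 spans chr19:53310128-53373293 on the plus strand. Exons of Mxd3 overlap Prelid1, those of Mxd4 overlap Gm42846 and those of Mxi1 overlap Gm10197, each on the other strand. Whether reads were assigned by strand is not given in the sources used here, so the levels of these 3 genes could hold reads of the overlapping gene.

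The promoters of the network were searched for the E-box through which its own dimers act. The RefSeq table of promoter sequences (GRCm38.p6) matched 6 of the 7 members, with 8 windows of the 250 bases before a transcript start. The E-box was searched as CACGTG, which reads the same on both strands, and a forkhead factor motif as GTAAACA on both strands. The E-box stood in 2 of the 8 windows (25.0%), those of Mxd4 and Mnt, against 6.02% of 32851 windows of the same length over all genes. It stood in 10 of 37 windows (27.0%) of a list of MYC-activated target genes described further on. The forkhead motif stood in 1 window, of Mxi1, against 3.17% of all windows. The stretches that hold these matches follow, 5′ to 3′ on the gene's own strand, with the motif in capitals. That of Mxd4 is shown at length because its level varied most in the network.
Mxd4, chr5:34187721-34187960, minus strand, E-box beginning 219 bases before the start at the end of the gene span: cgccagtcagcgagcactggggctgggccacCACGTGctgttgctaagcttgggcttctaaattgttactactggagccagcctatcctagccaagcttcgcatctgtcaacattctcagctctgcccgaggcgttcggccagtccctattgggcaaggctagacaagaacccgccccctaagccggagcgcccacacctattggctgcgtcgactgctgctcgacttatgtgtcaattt
Mnt, chr11:74830789-74830818, plus strand, E-box beginning 123 bases before a start inside the gene span: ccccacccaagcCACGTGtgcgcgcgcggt
Max, chr12:76962234-76962263, minus strand, E-box beginning 3 bases before a start inside the gene span and running across it: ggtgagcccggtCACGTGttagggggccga
Mxi1, chr19:53329453-53329482, plus strand, forkhead motif beginning 231 bases before a start inside the gene span: cgcgcggagaaGTAAACAaaccgcgcgcgg
A match is a description of the letters and not a shown binding site.

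Levels are given as scaled TPM, transcripts per 1e+06 divided by 1 scaling factor per library, which compares genes per length. Depth, as estimated reads in units of 1e+06, was 3.07 in the shallowest library and 29.1 in the deepest, the highest correlation of 2 libraries was 0.985, and no 2 libraries were identical. In 10 libraries the transcript of Actb, the cytoskeletal actin gene, stood at 12400 to 85300 TPM, against 217 to 2970 in the other 35. At 20 h they make up the whole LPS group on DL1 and the whole anti-IgM group on OP9, and at 68 h they are replicate 3 of OP9 unstimulated, OP9 LPS 68 h, DL1 LPS 68 h and OP9 anti-IgM 68 h. They are called high-Actb libraries here, a class set after the values were seen. At 20 h this class cannot be told apart from the stroma under each stimulus, nor from the stimulus on each stroma. B cell markers summed to 519 to 3100 in unstimulated OP9 cells and 1120 to 5690 elsewhere. The summed level of 16 stromal markers was 1770 to 16500 in the 3 unstimulated OP9 libraries, with none of the 16 at 0 in all of them, and 28.9 to 735 in the other 42. Myeloid markers summed to 54.6 to 146 in unstimulated OP9 cells and 6.43 to 36.9 in the others. Each comparison with unstimulated OP9 cells carries these differences, whose part in the results was not tested. In bulk RNA, fewer cells of a type and less RNA per cell cannot be told apart. No label says that replicates are separate mice or cultures, so p-values measure the spread between these samples.

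Myc had the highest group mean of the 7 members in all 15 groups, which in unstimulated OP9 cells rests on the high-Actb library. In the other 2 libraries of that group Myc held 22.9 and 35 scaled TPM, below Max at 46.1 and 41.0. It was highest at 20 h and fell to its lowest group means in unstimulated cells, an 8.13-fold range. OP9 cells with LPS at 20 h held 340.5, 377 and 745 scaled TPM (488 ± 224, SD, n = 3). With anti-IgM on OP9 at 20 h the values were 377, 242 and 414 (344 ± 90.4). DL1 cells at 20 h held 247, 258 and 246 with LPS and 223, 255 and 221 with anti-IgM. At 44 h the means with LPS were 237 ± 17.5 on OP9 and 175 ± 9.78 on DL1, and those with anti-IgM were 122.9 ± 5.45 on OP9 and 165 ± 6.45 on DL1. The order of the 2 stromas thus differed between the stimuli at 44 h, and neither difference passed the test (below). By 68 h OP9 libraries held 106, 101 and 188 with LPS and 98.3, 80.2 and 142 with anti-IgM. DL1 libraries held 103, 112 and 239 with LPS and 84.4, 92.3 and 88.4 with anti-IgM at that time. The highest value of each of the first 3 groups is its high-Actb library. Blimp1+ cells held 69.7, 72.5 and 85.4, and unstimulated DL1 cells 58.6, 60.4 and 61.0. Relative to the group mean, unstimulated OP9 cells spread most, at 22.9, 35 and 141, with the highest value in the high-Actb library. When the 15 groups are ordered by mean, 1 of the 14 neighbouring pairs does not overlap, so the order of adjacent groups is not resolved by these replicates.

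Max, the shared partner, varied least among the well-expressed members, with group means from 25.4 to 70.1 scaled TPM, a 2.76-fold range. Its highest group was DL1 cells with anti-IgM at 68 h, at 75.0, 66.8 and 68.4, and unstimulated DL1 cells were among the lowest, at 18.1, 21.2 and 39.9. No neighbouring pair of groups was free of overlap for Max. By group mean Myc and Max came closest in DL1 cells with anti-IgM at 68 h, where they were 88.4 ± 3.91 and 70.1 ± 4.38 scaled TPM.

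The antagonists followed separate patterns. Mxd4 had the widest range, 34.2-fold between group means. It was lowest with LPS at 20 and 44 h: OP9 cells with LPS at 44 h held 1.75, 1.25 and 1.08 scaled TPM and DL1 cells 1.05, 2.38 and 1.92. It was highest in OP9 cells with anti-IgM, at 35.8, 49.5 and 54.1 at 68 h, and these values do not overlap with those of any LPS group. Mxd3, a family member known to be expressed in proliferating cells, moved in another way. It was lowest in unstimulated cells (5.97 ± 1.86 on OP9, 5.96 ± 2.12 on DL1) and in DL1 cells with LPS at 20 h (5.95 ± 1.67), and highest in OP9 cells with anti-IgM at 68 h (26.0, 28.9 and 49.8). In stimulated cells its means at 44 and 68 h lay between 15.4 ± 1.25 (DL1, LPS, 44 h) and 34.9 ± 13 (OP9, anti-IgM, 68 h).

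Mxd1, Mxi1 and Mnt were low. Mxd1 had group means of 1.19 to 7.73 scaled TPM, with the lowest in DL1 cells with LPS at 20 h and in both LPS groups at 44 h, and 5.83 ± 0.355 in Blimp1+ cells. Mxi1 reached its highest means with LPS at 68 h, but on 1 library each: DL1 cells held 4.76, 6.16 and 31.9 and OP9 cells 6.86, 6.38 and 27.8, and in both the high value is the high-Actb library. Its lowest group, OP9 cells with LPS at 20 h, rests on 4, 32 and 1 estimated reads, so its low end is poorly resolved. Mnt, the family member known for broad expression, had means of 0.752 to 2.92 scaled TPM and reached 1 TPM in 33 of the 45 libraries. The other members reached it in at least 39.

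**Figure D1:**
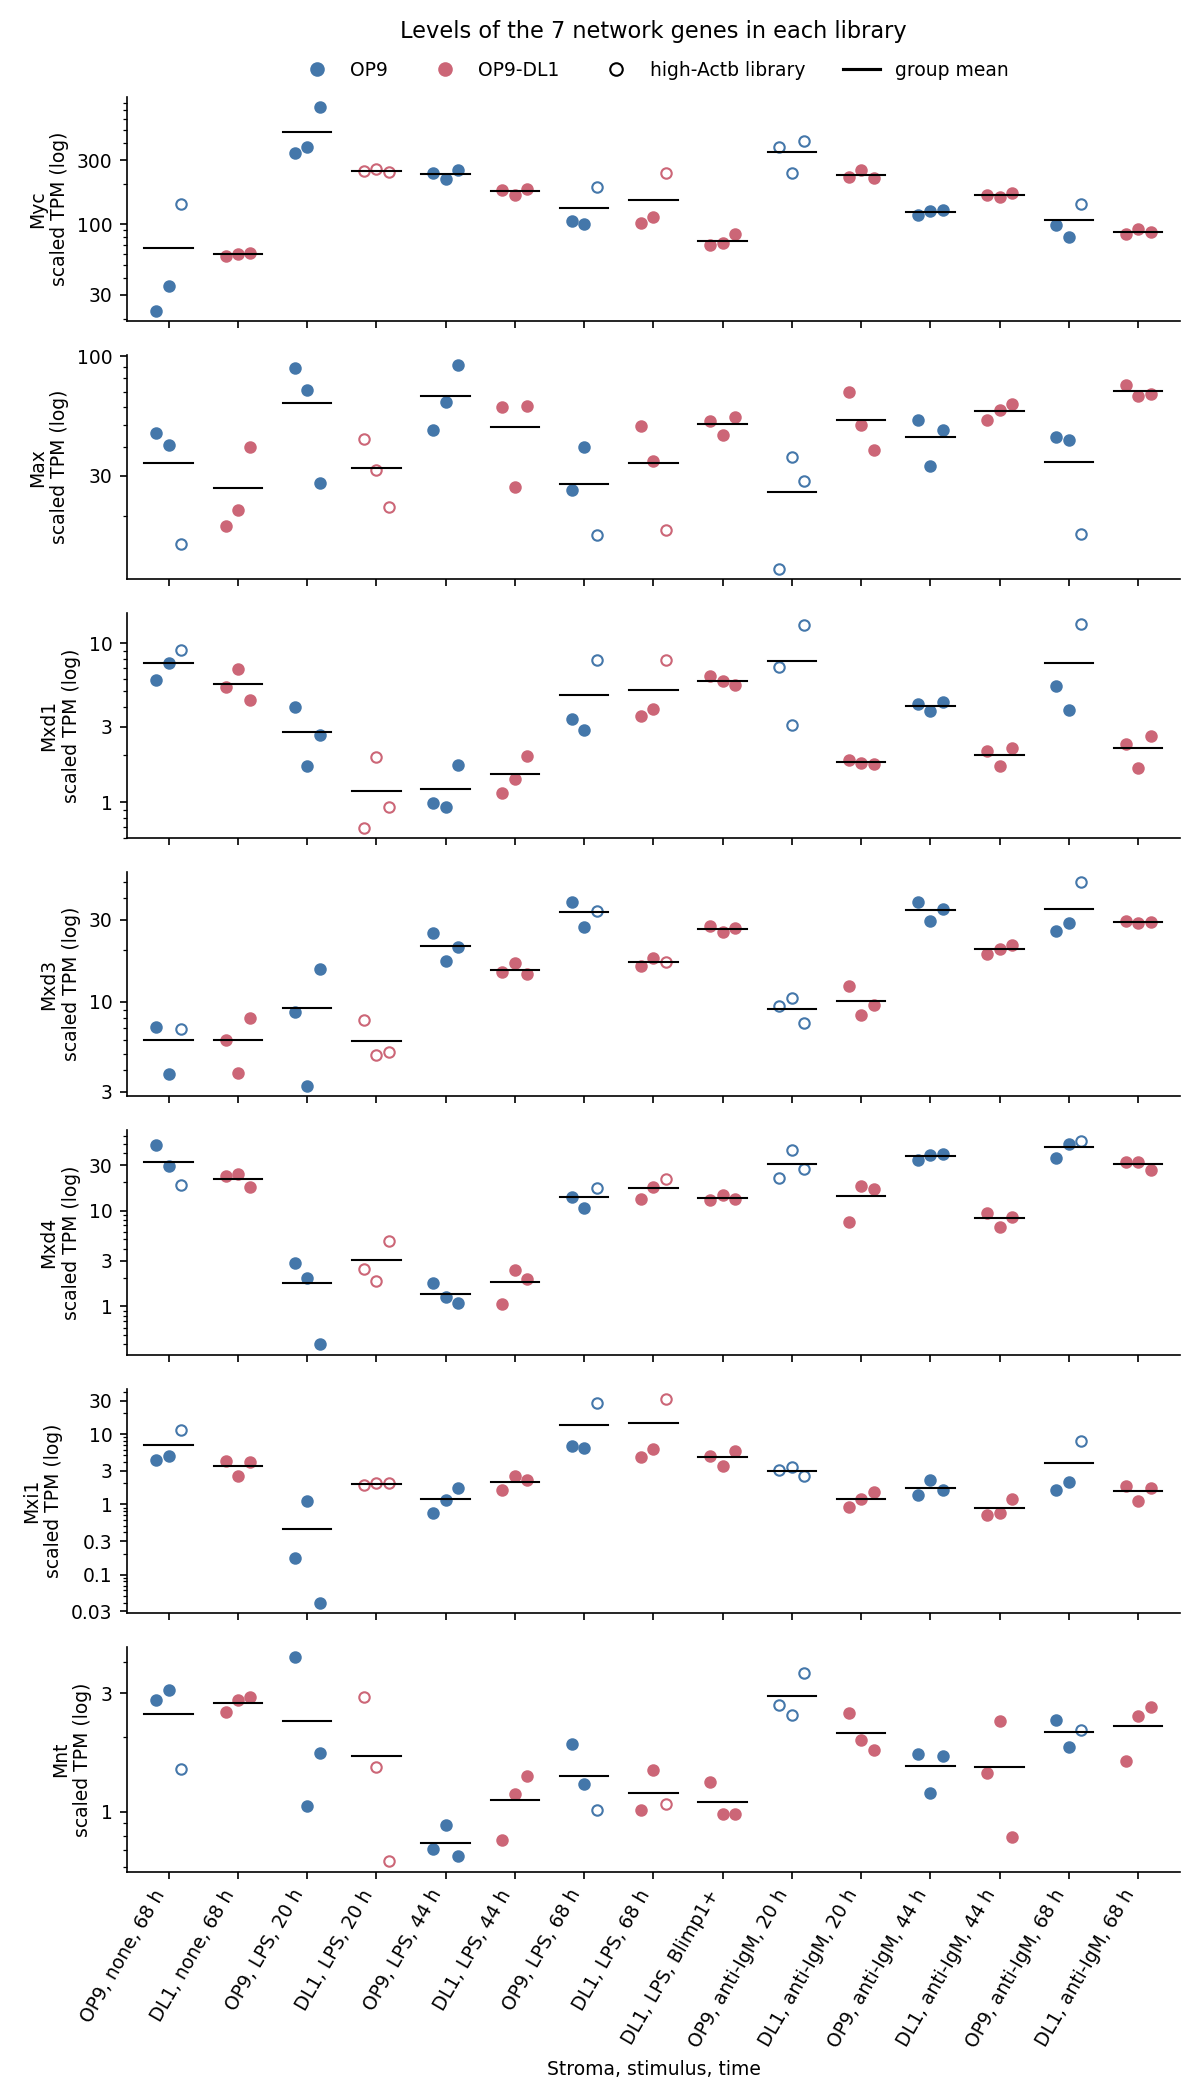
Level of each member in each library, as scaled TPM on a log axis, with 1 panel per gene and the 15 groups along the horizontal axis. Open points are the 10 high-Actb libraries and lines are group means; Mxd4 falls to between 1.05 and 2.38 with LPS at 44 h, and the high Mxi1 values at 68 h with LPS (31.9 and 27.8) are open points.

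To set the activator against its antagonists, Myc was divided by the sum of Mxd1, Mxd3, Mxd4, Mxi1 and Mnt in each library. This ratio of RNA levels is a description and was not tested. It was 31.8 ± 12.9 (SD, n = 3) in OP9 cells with LPS at 20 h and 18.3 ± 2.75 in DL1 cells with LPS at 20 h. It declined in every stimulated series, to 9.35 ± 1.05 on OP9 and 8.10 ± 1.26 on DL1 with LPS at 44 h and to 1.95 ± 0.266 and 2.68 ± 0.317 at 68 h. With anti-IgM it was lower at 20 h, at 6.70 ± 2.51 on OP9 and 7.98 ± 0.91 on DL1. On each stroma the stimulus at 20 h cannot be told apart from the high-Actb class. Nor can the fall from 20 h in DL1 cells with LPS and in OP9 cells with anti-IgM. The stromas then separated at 44 h, where OP9 libraries ranged from 1.47 to 1.66 and DL1 libraries from 4.96 to 5.06, and lay close together again at 68 h, at 1.14 ± 0.226 and 1.35 ± 0.0867. Blimp1+ cells stood at 1.46 ± 0.164 and unstimulated DL1 cells at 1.53 ± 0.105. Unstimulated OP9 libraries ranged from 0.332 to 2.94, the last in the high-Actb library. The sum itself changed its makeup: Mxd3 gave 82.1% and Mxd4 5.29% of it in OP9 cells with LPS at 44 h, but 43.4% and 47.3% with anti-IgM. In unstimulated DL1 cells Mxd4 gave 54.5% and Mxd3 15.3%.

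**Figure D2:**
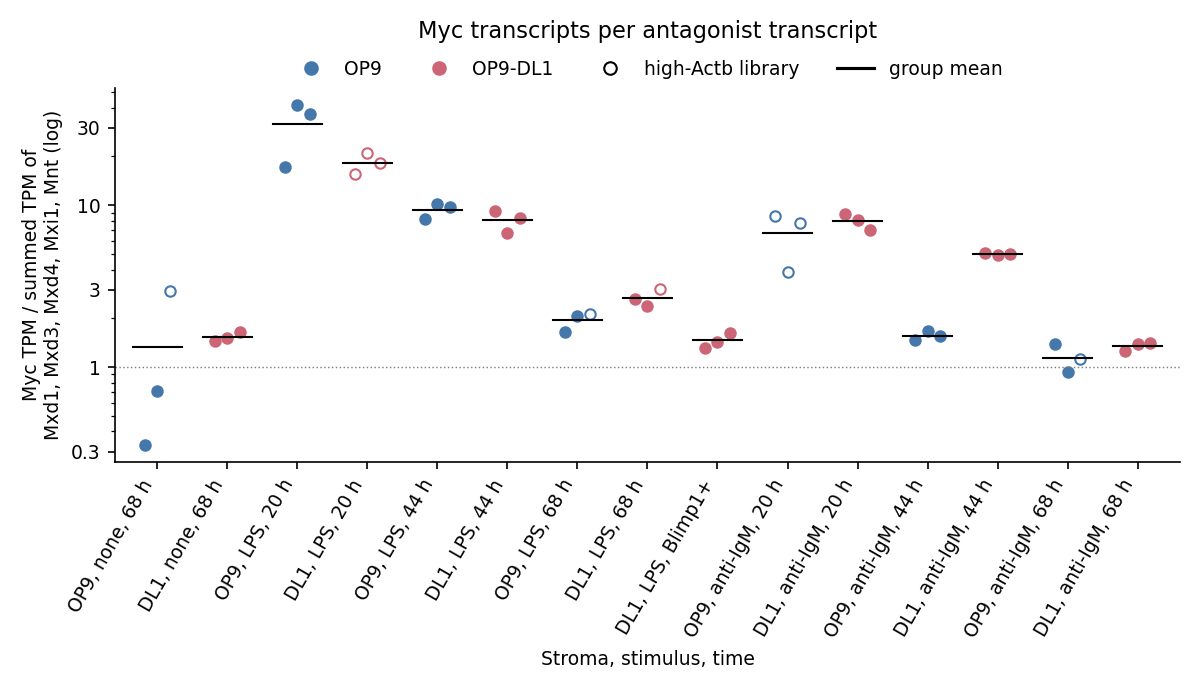
Myc level divided by the summed level of Mxd1, Mxd3, Mxd4, Mxi1 and Mnt in each library, on a log axis, by group, with a dotted line at equal levels. Open points are high-Actb libraries; with anti-IgM at 44 h the OP9 points (1.47 to 1.66) and the DL1 points (4.96 to 5.06) stand apart.

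Differences below are on the log2 scale of scaled TPM plus 1, from 1 limma model of all 15 groups, with p-values adjusted by Benjamini-Hochberg over the 15614 genes tested in each comparison. A gene is called at an adjusted p below 0.05, and ± after a log2 difference is its standard error. Adding 1 understates the change of genes as low as Mxd1, Mxi1 and Mnt. Over 24 comparisons of groups, Mxd4 was called in 10, Mxd3 in 6, each time higher, Mxd1 in 5, Myc in 4, Mxi1 in 3, Max in 1 and Mnt in 0. For Mnt the limma fit gave its smallest adjusted p, 0.053, in Blimp1+ cells against unstimulated DL1 cells. That difference, −0.84, was called in 5 of 10 settings, 1 of them the fit without the 10 high-Actb libraries (−0.84, limma adjusted p = 0.015). Many of these comparisons share groups, so the counts per member are not independent. The share of all genes called ran from 0.0128% (44 to 68 h, anti-IgM, OP9) to 30.5% (LPS against none, OP9). How often other genes were called over the 24 comparisons was not counted, so the counts per member are a description.

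The first question was what the Notch ligand on the stroma does to the network under each stimulus. With anti-IgM at 44 h, Mxd4 was lower on DL1: OP9 libraries held 33.8, 38.5 and 39.0 scaled TPM and DL1 libraries 9.50, 6.83 and 8.57, with no overlap. The log2 difference was −2.04 ± 0.35 (limma adjusted p = 0.0018), the only member called, in a comparison that called 0.897% of all genes. It was called in 10 of 11 settings, the exception being the authors' log2 values (−2.23, limma adjusted p = 0.12), and in each of 6 fits that left out a library. In the same comparison Myc was 0.42 ± 0.38 higher (limma adjusted p = 0.98), Mxd3 0.72 ± 0.32 lower (limma adjusted p = 0.46) and Mxd1 0.76 ± 0.37 lower (limma adjusted p = 0.58). Libraries of the 2 stromas did not overlap for any of these 3, nor for 33.9% of all genes tested, and none passed. Neither group contains a high-Actb library. Without the 10 high-Actb libraries elsewhere in the model, Mxd1 passed as well (adjusted p = 0.035 by limma). Stromal markers summed to 80.9 to 168 on OP9 and 89.7 to 197 on DL1 and so overlapped. B cell markers summed to 3950 to 4210 on OP9 and 2310 to 2380 on DL1, and plasma cell markers to 323 to 357 and 512 to 546, without overlap in either list. Their part in the Mxd4 difference was not tested.

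With LPS at 44 and 68 h no member was called between the stromas, by limma. The background was 0.16% of genes at 44 h and 0.064% at 68 h. At an unadjusted p under 0.05 were 0 and 1 members, and 2.42% and 3.29% of all genes. The 1 was Mxd3 at 68 h, with 38.3, 27.4 and 34 scaled TPM on OP9 and 16.3, 18.1 and 17.0 on DL1, a log2 difference of −0.91 ± 0.32 (limma adjusted p = 0.94). Mxd4 differed by 0.22 between the stromas with LPS at 44 h. The difference between the ligand effects of LPS and anti-IgM on Mxd4 at 44 h was 2.26 ± 0.5 (limma adjusted p = 0.063). It passed without the 10 high-Actb libraries (adjusted p = 0.0059 by limma). The comparison called 0.0833% of genes and 0 members, with 1 member at an unadjusted p under 0.05, as were 4.75% of all genes.

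At 68 h with anti-IgM, the limma test called 0 members of 7 between the stromas (background 1.73%). At an unadjusted p under 0.05 were 2 members, and 18% of all genes. Mxd1 held 5.41, 3.81 and 13.3 scaled TPM on OP9 and 2.20 ± 0.51 on DL1, a log2 difference of −1.26 ± 0.37 (limma adjusted p = 0.068). Without the high-Actb libraries it was −0.81 and passed (adjusted p = 0.047 by limma). Max was 1.12 ± 0.47 higher on DL1 (limma adjusted p = 0.2), and 0.67 higher without the high-Actb replicate 3 of OP9 (limma adjusted p = 0.82). Mxd4 held 46.5 ± 9.54 on OP9 and 30.4 ± 3.14 on DL1, a log2 difference of −0.58 ± 0.35 (limma adjusted p = 0.37). Its groups did not overlap, nor did those of 25% of all genes tested.

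Without stimulus at 68 h, limma called no member between the stromas, although the comparison called 26.5% of genes. No member had an unadjusted p under 0.05, against 36.5% of all genes. For Myc the log2 difference was 0.3 (limma adjusted p = 0.61). Leaving out the high-Actb library of OP9 moved it to 1.06, which passed (limma adjusted p = 0.00017 in the fit without all 10), and leaving out replicate 1 of OP9 turned it to −0.23. The Myc difference between unstimulated stromas is therefore not fixed by these 6 libraries. The ligand effects of the stimuli at 68 h were also set against the unstimulated one. Limma called 0 members for LPS minus none (background 16.1%) and 0 for anti-IgM minus none (background 15.6%). At an unadjusted p under 0.05 were 0 and 1 members, and 28.1% and 27.1% of all genes. For Myc these differences of differences were −0.15 ± 0.53 and −0.53 ± 0.53, and passed at −1.0 and −1.07 without the 10 high-Actb libraries (adjusted p = 0.017 and 0.0059 by limma). The ligand effects of LPS and anti-IgM at 68 h gave 0 called members by limma (background 0.199%). At an unadjusted p under 0.05 were 1 member and 13.5% of all genes.

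At 20 h the ligand comparison and the high-Actb class cannot be told apart. With anti-IgM, 2 of 7 members were called in a comparison that called 20.5% of genes. Mxd1 held 7.14, 3.06 and 13.0 scaled TPM on OP9 and 1.84, 1.77 and 1.76 on DL1, a log2 difference of −1.47 ± 0.37 (limma adjusted p = 0.009). Mxd4 held 21.8, 43.6 and 27.0 on OP9 and 7.67, 18.1 and 16.9 on DL1, a difference of −1.09 ± 0.35 (limma adjusted p = 0.029). Groups did not overlap for either gene, nor for 37.8% of all genes tested. The Mxd1 call was lost without replicate 3 of OP9 (−1.04, adjusted p = 0.057 by limma), and the Mxd4 call without replicate 2 of OP9 (−0.81) or replicate 1 of DL1 (−0.72) and with TPM as deposited (−0.58). It was kept in 4 of 6 fits that left out a library and in 5 of 10 settings, with −0.5 in the log2 table. With LPS, limma called 0 members (background 8.81%) and 3 had an unadjusted p under 0.05, as had 22.7% of all genes. Myc was 0.87 ± 0.38 lower on DL1 (limma adjusted p = 0.15). The groups did not overlap for Myc, nor for 23.3% of all genes tested. The ligand effects of the 2 stimuli at 20 h differed for Max, Mxd4 and Mxi1, in a comparison that called 19.4% of genes, and the high-Actb class holds 6 of its 12 libraries.

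**Figure D3:**
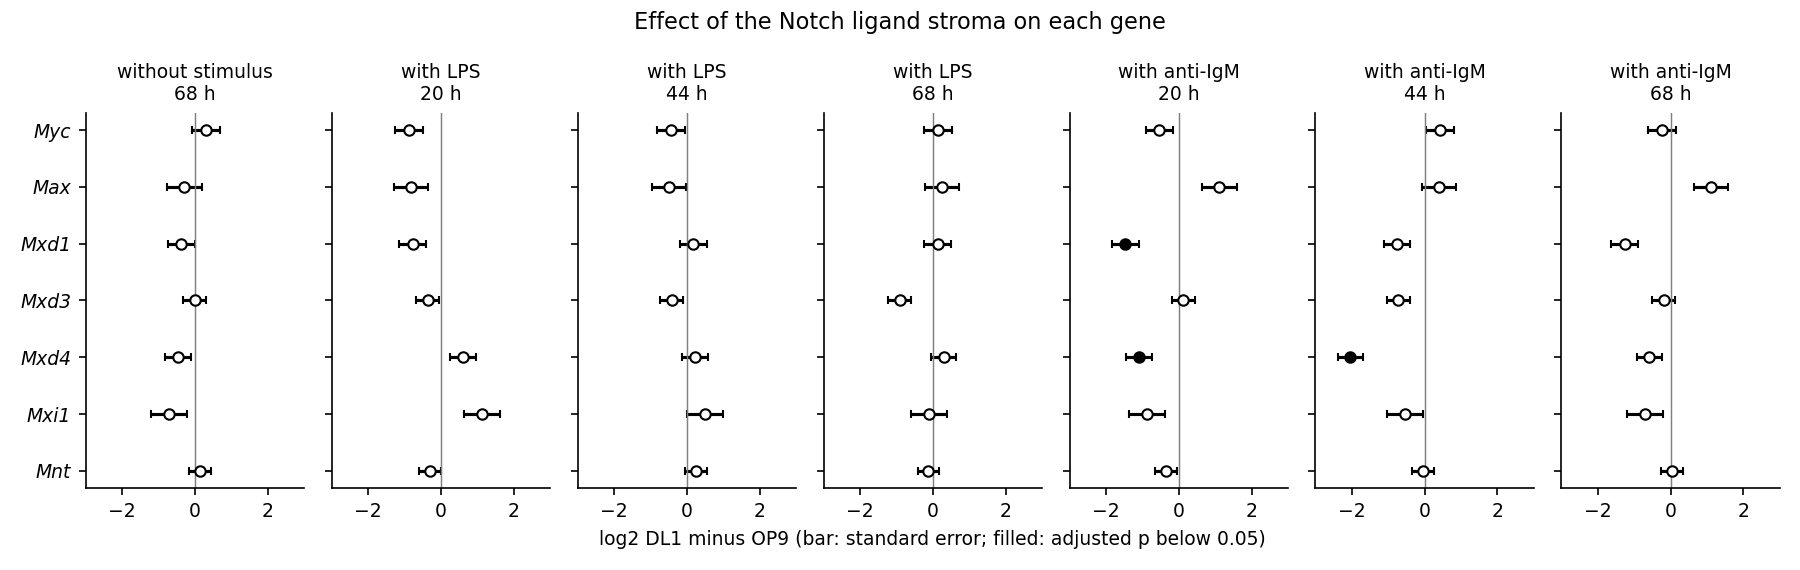
Log2 difference of DL1 minus OP9 cells for each of the 7 members in each of 7 comparisons, with standard errors from the model; filled points were called. Filled points are Mxd1 and Mxd4 with anti-IgM at 20 h (−1.47 and −1.09) and Mxd4 with anti-IgM at 44 h (−2.04).

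The stimulus comparisons at 68 h share their unstimulated group on each stroma, so their values stand side by side and are not separate evidence. Mxd3 was higher with a stimulus in all 4. On OP9 it held 7.12, 3.82 and 6.96 scaled TPM unstimulated and 38.3, 27.4 and 34 with LPS, a log2 difference of 2.32 ± 0.32 (limma adjusted p = 3.4e-07). With anti-IgM on OP9 the difference was 2.35 ± 0.32 (limma adjusted p = 4.2e-07). On DL1 it held 5.96, 3.84 and 8.08 unstimulated, and the difference was 1.43 ± 0.32 with LPS (limma adjusted p = 0.0025) and 2.16 ± 0.32 with anti-IgM (limma adjusted p = 9.6e-06). None of the stimulated libraries overlapped the unstimulated ones for Mxd3. The same held for 31.5% (LPS, OP9), 21.8% (anti-IgM, OP9), 27% (LPS, DL1) and 42.8% (anti-IgM, DL1) of all genes tested.

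Myc was called higher in 3 of these 4 comparisons, each of which rests on the spread of few libraries. With LPS it was 1.36 ± 0.38 higher on OP9 (limma adjusted p = 0.005) and 1.21 ± 0.38 higher on DL1 (limma adjusted p = 0.038), and with anti-IgM 1.08 ± 0.38 higher on OP9 (limma adjusted p = 0.031). With anti-IgM on DL1 the difference was 0.55 ± 0.38 (limma adjusted p = 0.43). Without replicate 1 of unstimulated OP9 cells the LPS difference was 0.83 and no longer called, and that with anti-IgM was 0.55, a call kept in 2 of the 6 fits that left out a library. On DL1 the LPS call was lost without replicate 3 of the LPS group (0.83, adjusted p = 0.28 by limma), the high-Actb library, or without any 1 unstimulated library. On DL1 stimulated and unstimulated Myc values did not overlap, while on OP9 the unstimulated high-Actb library (141) lay within the stimulated range. Of all genes tested on DL1, 27% (LPS) and 42.8% (anti-IgM) did not overlap either. In the fit without the 10 high-Actb libraries all 4 were called, at 1.83, 1.62, 0.83 and 0.55 (limma adjusted p between 2.6e-07 and 0.032).

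Other members changed in single stimulus comparisons. Mxd4 was lower with LPS than without stimulus on OP9, at 13.9, 10.7 and 17.3 against 48.7, 29.5 and 18.7 scaled TPM. Its groups did not overlap, nor did those of 31.5% of all genes tested. The log2 difference was −1.08 ± 0.35 (limma adjusted p = 0.017). That call was lost with TPM as deposited, without replicate 1 of the unstimulated group (−0.74) and without replicate 2 of the LPS group (−0.91). It was kept in 7 of 11 settings and in 4 of 6 fits that left out a library. Max was higher with anti-IgM than without stimulus on DL1 (1.45 ± 0.47, limma adjusted p = 0.043), a call kept in 1 of 6 fits that left out a library. The comparisons called 3, 2, 2 and 2 members, against backgrounds of 30.5% (LPS, OP9), 23.9% (anti-IgM, OP9), 8.1% (LPS, DL1) and 9.52% (anti-IgM, DL1) of genes.

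Mxd4 was lower with LPS than with anti-IgM in all 4 comparisons, and was called in 3 of them. On OP9 at 44 h it held 1.75, 1.25 and 1.08 scaled TPM with LPS and 33.8, 38.5 and 39.0 with anti-IgM. The log2 difference of −4.02 ± 0.35 (limma adjusted p = 6.9e-10) stayed between −4.92 and −3.83 and was called in all 11 settings. On DL1 at 44 h it held 1.05, 2.38 and 1.92 against 9.50, 6.83 and 8.57, a difference of −1.76 ± 0.35 (limma adjusted p = 0.0013). At 68 h the difference was −1.67 ± 0.35 on OP9 (limma adjusted p = 0.0022), a call lost with the authors' log2 values (limma adjusted p = 0.12), and −0.79 ± 0.35 on DL1 (limma adjusted p = 0.23). The groups did not overlap in any of the 4. Neither did those of 45.8% (OP9, 44 h), 33.8% (DL1, 44 h), 18.4% (OP9, 68 h) and 26.9% (DL1, 68 h) of all genes tested. Cell markers moved with the stimulus too: on OP9 at 44 h B cell markers summed to 2020 to 2220 with LPS and 3950 to 4210 with anti-IgM, and plasma cell markers to 662 to 758 and 323 to 357. On DL1 at 44 h B cell markers summed to 1670 to 1710 with LPS and 2310 to 2380 with anti-IgM, and plasma cell markers to 708 to 875 and 512 to 546. Their part in the Mxd4 differences was not tested. Backgrounds were 8.63% (OP9, 44 h), 2.91% (DL1, 44 h), 4.56% (OP9, 68 h) and 4.39% (DL1, 68 h), with 2, 1, 1 and 1 members called.

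The second member called on OP9 at 44 h was Mxd1, with 0.993, 0.933 and 1.71 scaled TPM with LPS and 4.13, 3.74 and 4.30 with anti-IgM. The log2 difference was −1.21 ± 0.37 (limma adjusted p = 0.036), kept in 1 of 6 fits that left out a library. Myc was 0.94 ± 0.38 higher with LPS there (limma adjusted p = 0.13), and passed without the 10 high-Actb libraries (adjusted p = 0.00051 by limma). Its values, 241, 218 and 253 against 117, 125 and 127, did not overlap, nor did those of 45.8% of all genes tested. At 68 h on DL1 the call was Mxi1, higher with LPS by 2.12 ± 0.49 (limma adjusted p = 0.0062). It held 4.76, 6.16 and 31.9 with LPS and 1.82, 1.13 and 1.74 with anti-IgM. Without the high-Actb replicate 3 the difference was 1.34 and not called (limma adjusted p = 0.14). All 7 members were free of overlap between these 2 groups, as were 26.9% of all genes tested.

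A list of 11 T cell markers moved with the stimulus, summing to 97.4 to 389 scaled TPM with anti-IgM and 16.5 to 55.8 with LPS. Most of this was Lck, a kinase that some B cells also express, at 79.9 to 380 with anti-IgM and 15.2 to 52.3 with LPS over 18 libraries each. The defining T cell gene Cd3e was at 0 in 9 of 18 libraries with anti-IgM and did not exceed 0.563, and Trac was at 0 in 15 of 18. Other defining T cell genes were low but moved with the stimulus. Cd3g had a median of 1.14 and reached 5.74 with anti-IgM, and was at 0 in 13 of 18 libraries with LPS. Trbc2 had a median of 1.56 and reached 8.72 with anti-IgM, and was at 0 in 15 of 18 with LPS. Trbc1 and Cd4 reached 6.39 and 9.49 with anti-IgM, and were at 0 in 17 and 14 of 18 with LPS. Their part in the stimulus comparisons was not tested.

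Time was compared between 44 and 68 h in 4 series and between 20 and 44 h in the 2 series whose earlier group holds no high-Actb library. With LPS, 3 antagonists rose from 44 to 68 h on both stromas. Mxd4 went from 1.75, 1.25 and 1.08 to 13.9, 10.7 and 17.3 scaled TPM on OP9 (log2 difference 2.65 ± 0.35, limma adjusted p = 4.2e-06). On DL1 it went from 1.05, 2.38 and 1.92 to 13.3, 17.6 and 21.4 (2.73 ± 0.35, limma adjusted p = 3.4e-06). Both were called in all 11 settings. Neither pair overlapped, nor did 33.7% of all genes tested on OP9 and 31.1% on DL1. The comparisons called 6.91% of genes on OP9 and 7.18% on DL1, and 3 of 7 members in each.

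Mxi1 and Mxd1 rose in the same LPS comparisons, and all but the Mxi1 rise on OP9 lost their call without a high-Actb library. Mxi1 rose by 2.45 ± 0.49 on OP9 (limma adjusted p = 0.001) from 0.750, 1.15 and 1.74 scaled TPM to 6.86, 6.38 and 27.8. That call was kept in each of 6 fits that left out a library (1.81 to 2.79) and in 10 of 11 settings. On DL1 Mxi1 rose by 1.84 ± 0.49 (limma adjusted p = 0.015), with the call kept in 4 of 6 fits that left out a library. Leaving out replicate 3 at 68 h there gave 1.06 and no call (limma adjusted p = 0.25). Mxd1 rose by 1.28 ± 0.37 on OP9 (limma adjusted p = 0.029) and 1.22 ± 0.37 on DL1 (limma adjusted p = 0.039). Without replicate 3 at 68 h these were 0.9 and 0.91, and not called. Of 6 fits that left out a library, 3 kept the Mxd1 call on OP9 and 1 kept it on DL1. Without all 10 high-Actb libraries the 4 values were 1.81, 1.06, 0.9 and 0.91 and were called (limma adjusted p between 5.5e-05 and 0.012). Myc was 0.9 ± 0.38 lower at 68 h on OP9 (limma adjusted p = 0.17), and 1.19 lower without the high-Actb libraries (limma adjusted p = 0.00025).

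With anti-IgM the later step gave fewer calls. On DL1, Mxd4 rose from 9.50, 6.83 and 8.57 scaled TPM at 44 h to 32.1, 32.3 and 26.8 at 68 h (log2 difference 1.76 ± 0.35, limma adjusted p = 0.022, background 0.179%). The groups did not overlap, nor did those of 28% of all genes tested. The call was lost in each of 6 fits that left out a library, which gave 1.64 to 1.85. On OP9, limma called no member (background 0.0128%), and none had an unadjusted p under 0.05, against 8.31% of all genes. Mxd4 was already at 33.8, 38.5 and 39.0 at 44 h there. From 20 to 44 h with LPS on OP9, Mxd3 rose from 8.69, 3.23 and 15.5 to 25.3, 17.2 and 20.9 (1.32 ± 0.32, limma adjusted p = 0.022, background 1.74%). Without replicate 2 at 20 h the difference was 0.79 and not called (limma adjusted p = 0.11), and 3 of 6 fits that left out a library kept the call. From 20 to 44 h with anti-IgM on DL1, limma called 0 members (background 0.0576%). Mxd3 alone had an unadjusted p under 0.05, as had 4.69% of all genes.

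**Figure D4:**
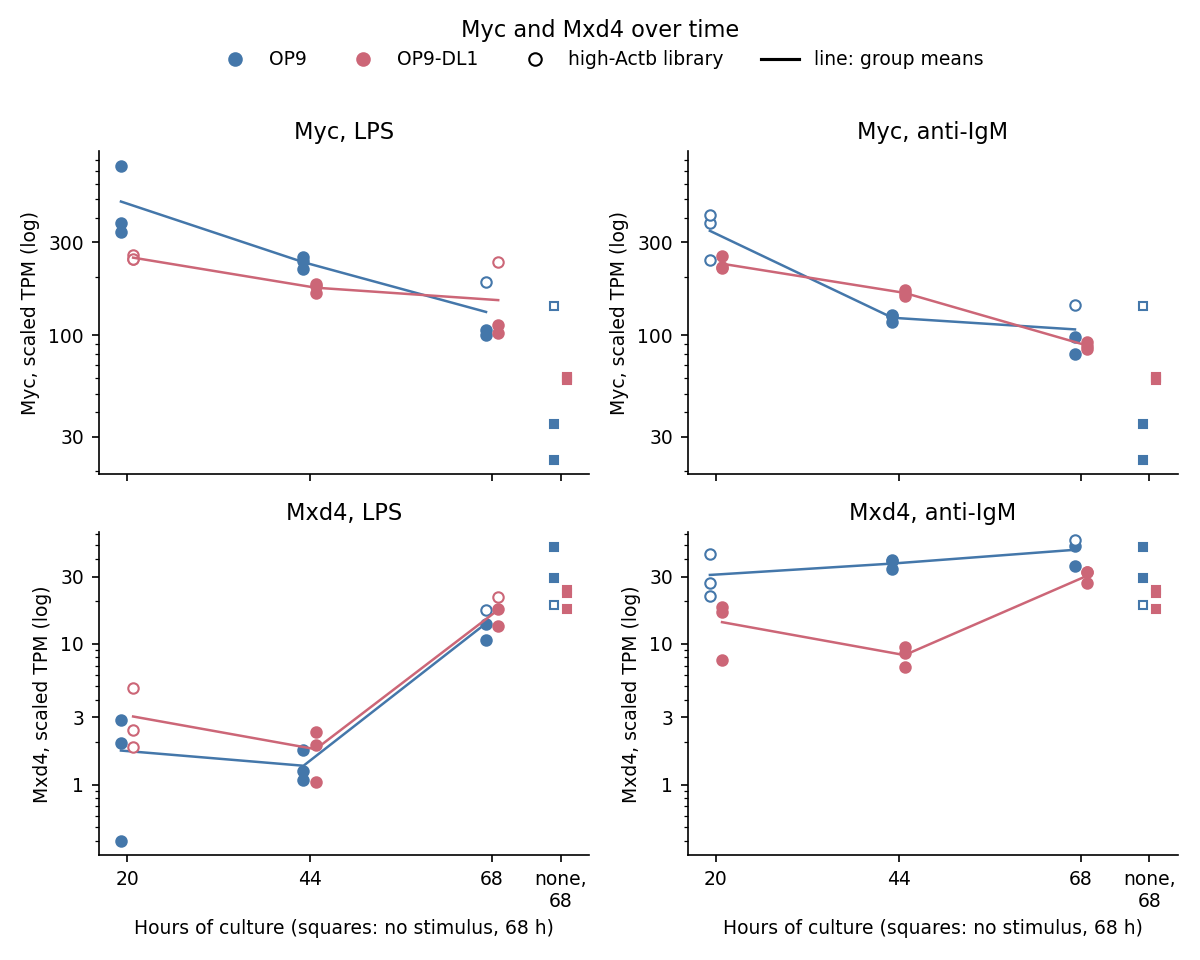
Myc and Mxd4 in scaled TPM on a log axis against hours of culture, with LPS and with anti-IgM, OP9 in blue and DL1 in red; lines join group means and squares are unstimulated cells at 68 h. With LPS Mxd4 lies between 1.05 and 2.38 at 44 h and between 10.7 and 21.4 at 68 h on both stromas, while with anti-IgM at 44 h the stromas are separated (33.8 to 39.0 on OP9, 6.83 to 9.50 on DL1).

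Blimp1+ cells were compared with 3 groups of DL1 cells. Prdm1, which encodes Blimp1, checks the sort: its mean was 75.6 scaled TPM in Blimp1+ cells and 3.84 in DL1 cells with LPS at 44 h. Plasma cell markers summed to 7530 to 8420 and 708 to 875 in these groups. Against the latter, 3 of 7 members were called (background 12% of genes). Myc was lower, at 69.7, 72.5 and 85.4 scaled TPM against 180, 164 and 182. Its groups did not overlap, nor did those of 47.3% of all genes tested. The log2 difference was −1.2 ± 0.38 (limma adjusted p = 0.029). That call was lost in each of 6 fits that left out a library, at −1.29 to −1.15, and was stronger without the high-Actb libraries (adjusted p = 2e-05 by limma).

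Mxd4 and Mxd1 were higher in Blimp1+ cells than with LPS at 44 h. Mxd4 held 13.0, 14.7 and 13.2 scaled TPM against 1.05, 2.38 and 1.92 (2.42 ± 0.35, limma adjusted p = 5.2e-06). Mxd1 held 6.19, 5.82 and 5.48 against 1.15, 1.41 and 1.95 (1.46 ± 0.37, limma adjusted p = 0.0068). Neither gene overlapped between the groups, nor did 47.3% of all genes tested. Against DL1 cells with LPS at 68 h, limma called 0 members (background 2.84%). Myc alone had an unadjusted p under 0.05 (−0.89 ± 0.38, limma adjusted p = 0.32), as had 11.5% of all genes. Against unstimulated DL1 cells the limma test called 1 of 7 (background 14.6%): Mxd3 was higher, at 27.8, 25.4 and 26.8 against 5.96, 3.84 and 8.08 (2.04 ± 0.32, limma adjusted p = 1.1e-05). Because the Blimp1+ group has no stated time, stage and time of culture cannot be told apart here.

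Genes downstream of the network were followed with 2 lists. They hold 40 MYC-activated targets (ribosome building, nucleotide and polyamine synthesis, cell cycle and metabolism) and 19 tested genes repressed by MYC or tied to quiescence. Both lists were drawn up with earlier results of these data known, so their counts beside the shares of all genes are a description. With LPS against anti-IgM on OP9 at 44 h, 26 of 40 activated targets were higher and 0 lower (median log2 difference 1.41, against −0.04 over all genes, of which 4.9% were higher). Srm, the spermidine synthase gene, had a mean of 806 scaled TPM with LPS and 176 with anti-IgM (2.13, limma adjusted p = 0.0027). Mrto4, a ribosome assembly factor, stood at 290 against 69.4 (2.06, limma adjusted p = 4e-07). Of the repressed and quiescence genes 5 were lower and 2 higher, against 3.73% of all genes lower, with Btg1, an antiproliferation gene, at 13.5 against 247 (−4.05) and Ccng2, a cyclin of non-dividing cells, at 7.37 against 88.9 (−3.44). Cdkn1a, a cell cycle inhibitor that MYC represses, went the other way, at 29.7 against 5.07 (2.37).

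On DL1 the same stimulus comparison at 44 h called 0 of 40 activated targets by limma (median 0.34). It had 8 of them at an unadjusted p under 0.05, as were 11.1% of all genes. It called 9 higher and 0 lower without the high-Actb libraries, a fit that called 4.57% of all genes higher there. The difference between the ligand effects at 44 h, LPS minus anti-IgM, had a median of −1.03 over the activated targets. By limma 0 of 40 were called, and 20 had an unadjusted p under 0.05, as did 4.75% of all genes. Without the high-Actb libraries 16 were called lower, against 0.909% of all genes. The ligand comparison with anti-IgM at 44 h gave 7 higher and 0 lower (median 0.95 against −0.01 over all genes, of which 0.538% were higher), and 26 higher without the high-Actb libraries, against 3.31% of all genes. Npm1, a nucleolar protein gene, had means of 1320 on DL1 and 586 on OP9 (1.18, limma adjusted p = 0.0013), and Nme1, a nucleotide kinase gene, 719 and 324 (1.15). Klf2, a quiescence factor of lymphocytes, had means of 0.844 and 17.1 (−3.04, limma adjusted p = 0.048). With LPS the ligand comparisons at 44 and 68 h called 0 of 40 by limma. At an unadjusted p under 0.05 were 0 and 3, and 2.42% and 3.29% of all genes.

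From 44 to 68 h with LPS the activated targets fell and several quiescence genes rose. On OP9 30 of 40 were lower and 0 higher (median −1.69 against 0.06 over all genes, of which 4.02% were lower), and on DL1 28 were lower and 0 higher (median −1.29 against 0.13 over all genes, of which 4.17% were lower). Rrp12, a ribosome export factor, went from a mean of 42.7 to 5.11 scaled TPM on OP9 (−3.05), and Srm from 918 to 190 on DL1 (−2.35). Btg1 went from 13.5 to 206 on OP9 (3.59), and Txnip, a brake on glucose uptake, from 13.9 to 48.4 (1.72). Of the 19 repressed and quiescence genes 8 rose and 1 fell on OP9, and 3 rose and 1 fell on DL1, against 2.89% and 3.01% of all genes higher. With anti-IgM in the same interval limma called 0 of 40 activated targets on each stroma, with medians of −0.42 on OP9 and −0.77 on DL1 and with 7 and 24 at an unadjusted p under 0.05, as had 8.31% and 6.7% of all genes. On DL1 18 were called lower without the high-Actb libraries, against 1.55% of all genes.

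In Blimp1+ cells against DL1 cells with LPS at 44 h, 30 of 40 activated targets were lower and 0 higher (median −1.73 against 0.09 over all genes, of which 5.03% were lower). Gart, a purine synthesis enzyme, differed by −2.57 and Rrp9, a ribosomal RNA processing factor, by −2.43. Txnip had a mean of 122 scaled TPM against 31.2 (1.89). Among 18 corepressors and coactivators 5 were lower and 1 higher, the former including Ruvbl1 (−1.65) and Ruvbl2 (−2.26), helicases that serve as MYC cofactors. With a stimulus at 68 h, activated targets were called higher in 14 (LPS) and 11 (anti-IgM) of 40 on OP9 and in 4 and 9 on DL1, and lower in 0 each time. Of all genes 11.4% (LPS) and 8.35% (anti-IgM) were higher on OP9, and 5.54% and 6.07% on DL1. The OP9 values carry the stromal difference given above. On DL1 against OP9 at 20 h, activated targets were higher in 9 and lower in 0 of 40 with LPS, and higher in 17 and lower in 1 with anti-IgM, against 4.4% and 10.2% of all genes higher. In these 20 h comparisons the stroma and the high-Actb class cannot be told apart. Without stimulus 10 were higher and 2 lower on DL1, against 8.84% of all genes higher.

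**Figure D5:**
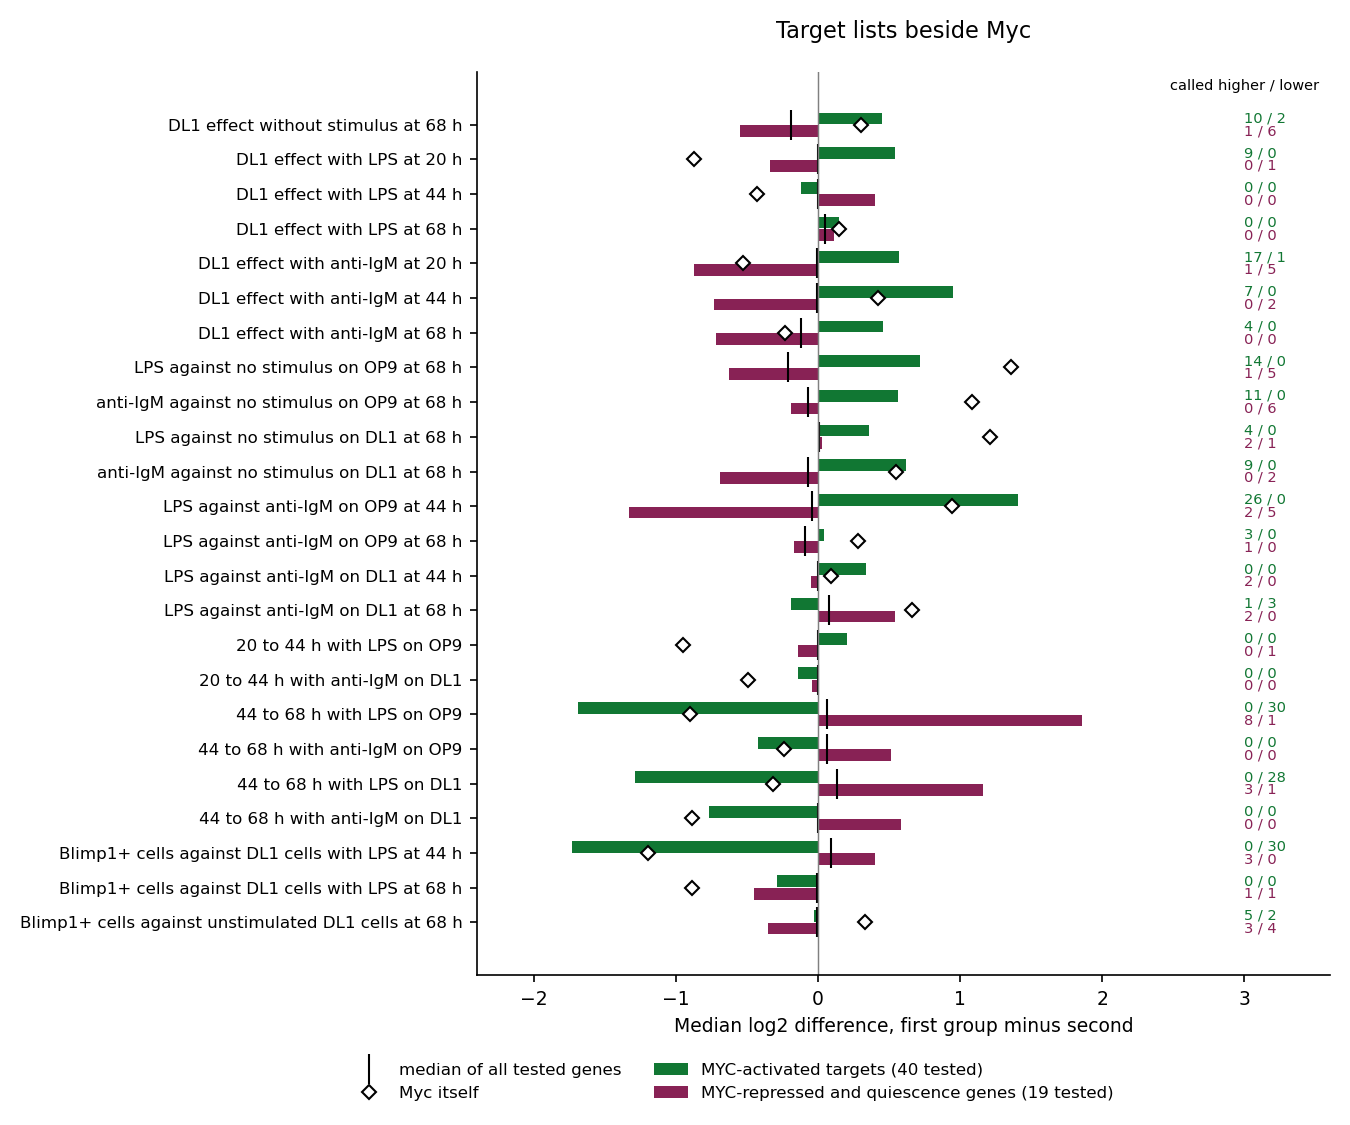
Median log2 difference of the MYC-activated list (40 genes) and the repressed and quiescence list (19 genes) in each of 24 comparisons, with the numbers called higher and lower at the right; diamonds are Myc itself and ticks the median of all genes. The lowest medians of the activated list are those of Blimp1+ cells against LPS at 44 h (−1.73) and of 44 to 68 h with LPS on OP9 (−1.69), and the highest is LPS against anti-IgM on OP9 at 44 h (1.41).

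The genes whose 15 group means were most like those of each member were read from 9105 genes, as a correlation of log2 means and as a description only, since the 15 points are group means that share 1 scaling and differ in depth. For Myc they were Mak16 (0.925), Papola (0.919) and Wdr75 (0.919), and for Max Ints5 (0.943). For Mxd3 they were Neil3 (0.945), Cenpf (0.904) and Foxm1 (0.897), of which Cenpf and Foxm1 are genes of mitosis. Mxd4 was most like Prcp (0.951), Mxd1 like Ccpg1 (0.972), Mxi1 like Unc119 (0.91) and Mnt like Mepce (0.872). Among the members themselves Mxd1 and Mxd4 had the highest correlation (0.75), Myc had −0.6 with Mxd4, −0.52 with Mxd1 and −0.54 with Mxi1, and −0.18 with Mxd3. Myc and Max had 0.19.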

How the data were processed

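PolyA RNA of sorted viable cells was measured in 45 libraries, made per the labels with a SMART-seq kit and Nextera XT. Kit names differ between labels and series text, which names HiSeq and NextSeq500 instruments without saying which library ran on which. Kallisto, limma, GRCm38 and mm10 are named without versions in the submitters' processing notes. The deposited main table holds TPM per gene symbol, computed by the authors. The authors also deposited log2 values of estimated reads per 1e+06, used for the depth of each library and as an alternative.

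Each library was scaled by a median-ratio factor (0.442 to 1.43), and log2 was taken after adding 1. Genes with at least 1 TPM in at least 3 libraries were tested (15614 of 30317). One limma 3.58.1 model (R 4.3.3) of 15 group means, with trend and robust moderation, gave 29 comparisons, 5 of them differences of differences. The script was tested on simulated data. Members and lists were chosen with earlier results of these data known. All 7 members were tested in every comparison, and up to 4 called genes of largest change were kept per list. Members and other genes were chosen for mention from these, so not every member has a value in every comparison. Actb, Lck, Cd3e, Cd3g, Trac, Trbc1, Trbc2 and Cd4 were named after their values were seen. Alternatives were TPM as deposited, quantile normalization, the log2 table, a pseudocount of 0.1, no filter, 5 TPM as filter, a replicate block, only the groups compared and each library left out. Chosen after seeing the data were fits without 4 or 10 libraries high in Actb and with a score for them. Low estimated reads limit the precision of Mxd1, Mxi1 and Mnt. They also limit that of Mxd4 with LPS at 20 and 44 h, where the lowest library held 7.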

Additional observations from a re-analysis of the deposited data

Results flagged for a closer look

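At 20 h, 3 members had a ligand effect that differed between LPS and anti-IgM by the test of that difference in the limma model. The value is the DL1 minus OP9 difference with LPS minus that with anti-IgM, on the log2 scale, and the comparison called 19.4% of all genes. For Max it was −1.95 ± 0.66 (SE, limma adjusted p = 0.036), called in 5 of 10 settings and between −2.84 and −0.28 over them. For Mxd4 it was 1.7 ± 0.5 (limma adjusted p = 0.017), called in 6 of 10 settings and between 0.97 and 2.14. For Mxi1 it was 1.99 ± 0.69 (limma adjusted p = 0.04), called in 6 of 10 settings and between 0 and 3.81. Of 12 fits that each left out a library, 5 kept the call of Max, 9 that of Mxd4 and 2 that of Mxi1. The Mxi1 value rests in OP9 cells with LPS on 4, 32 and 1 estimated reads. All 6 libraries of DL1 cells with LPS and of OP9 cells with anti-IgM are high-Actb libraries and none of the other 6 is, so the stimulus-dependent ligand effect and that class cannot be told apart at 20 h.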

How the results depend on the processing

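Values are log2 differences of Myc unless another gene is named, and p-values are adjusted by limma. Where a cause is not given, it was not tested. With TPM as deposited, Myc was 0.81 (DL1 effect, unstimulated), −1.07 (DL1 effect, LPS 20 h) and −1.15 (Blimp1+ against LPS 68 h), now called, 0.79 (LPS against none, DL1), no longer called, and 0.01 (DL1 effect, anti-IgM 20 h), −0.08 (LPS against anti-IgM, DL1 44 h) and −0.36 (Blimp1+ against unstimulated), with the sign turned. Mxd4 turned to 0.02 for the unstimulated DL1 effect. Quantile normalization gave −1.11 (DL1 effect, LPS 20 h, now called), 0.99 (LPS against none, DL1, lost) and −0.07 (LPS against anti-IgM, DL1 44 h, turned). The log2 table gave −1.06 (DL1 effect, LPS 20 h), −1.03 (44 to 68 h, LPS, OP9) and −1.18 (LPS minus anti-IgM, 20 h), now called, 0.79 (LPS against none, DL1, lost), and 0.12, 0.06 and −0.05 with the sign turned (DL1 effect with anti-IgM at 20 and 68 h, and LPS minus anti-IgM at 68 h). With no filter 1.21 (LPS against none, DL1) and −1.20 (Blimp1+ against LPS 44 h) were no longer called.

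With only the groups compared, the stimulus differences were 1.36, 1.08 and 1.21 (LPS on OP9, anti-IgM on OP9, LPS on DL1), no longer called. Now called were 0.42 (DL1 effect, anti-IgM 44 h), 0.55 (anti-IgM, DL1), 0.94 (LPS against anti-IgM, OP9 44 h), −0.89 (44 to 68 h, anti-IgM, DL1) and −0.86 (LPS minus anti-IgM, 44 h). Without the 4 libraries of highest score, Myc was called at 1.06 (DL1 effect, unstimulated), −0.87 (DL1 effect, LPS 20 h), 0.94 (LPS against anti-IgM, OP9 44 h), −0.95 (20 to 44 h, LPS, OP9), −0.90 (44 to 68 h, LPS, OP9), −0.89 (44 to 68 h, anti-IgM, DL1), and −1.29 and −1.07 (LPS and anti-IgM minus none). It turned to −0.23 (DL1 effect, LPS 68 h) and −0.22 (LPS minus anti-IgM, 68 h). Without all 10, calls were gained at 1.06, 0.55, 0.94, −0.95, −1.19, −0.70, −0.89, −1.0 and −1.07 in the same comparisons, with anti-IgM against none and 44 to 68 h with LPS on DL1 added; the 20 h ligand effects have no value there. The score term gave −1.40 (DL1 effect, LPS 20 h), 0.81 (anti-IgM against none, DL1), 0.98, −0.86 and −1.33 (LPS on OP9 against anti-IgM at 44 h, from 20 to 44 h and from 44 to 68 h) and −1.75 (LPS minus anti-IgM, 20 h), now called, and turned 0.36 and 0.27 (DL1 effect, anti-IgM 20 and 68 h) and −0.18 (LPS minus anti-IgM, 68 h).

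Leaving out 1 library gave Myc ranges of −0.23 to 1.06 (DL1 effect, unstimulated), −0.23 to 0.44 (DL1 effect, LPS 68 h), 0.83 to 2.12 (LPS, OP9), 0.55 to 1.84 (anti-IgM, OP9), 0.83 to 1.43 (LPS, DL1), −0.01 to 0.5 (LPS against anti-IgM, OP9 68 h), −1.29 to −1.15 (Blimp1+ against LPS 44 h), −0.55 to 0.01, −0.9 to 0.38 and −1.29 to 0 (LPS minus anti-IgM at 20 h, LPS minus none, anti-IgM minus none). Same-numbered libraries showed no general pairing: 51 of 315 pairs (16.2%) had correlated deviations above 0.1, with a median of 0.01 and a highest of 0.77. By mean correlation, 20 of 45 libraries were most like libraries of their own number. At 68 h all high-Actb libraries carry replicate number 3, so a shared state of some same-numbered libraries remains. The replicate block brought in calls of Mxd1 (DL1 effect, anti-IgM 68 h, −1.26, adjusted p = 0.045) and Mxi1 (LPS against anti-IgM, OP9 68 h, 1.51, adjusted p = 0.033) and changed no other call. Scaling moved the median of all genes by over 0.1 in several comparisons, for example in the unstimulated DL1 effect (−0.19 scaled, 0.15 as deposited, 0.05 quantile, 0.29 in the log2 table). The number of genes called moved by over 1.5 times under at least 1 setting in all 29 comparisons. For the DL1 effect with anti-IgM at 44 h it was 140, with 8 in the log2 table, 26 with TPM as deposited and 2500 with only the groups compared. For LPS against anti-IgM on OP9 at 44 h it was 1347, with 778 and 4994 as the lowest and highest.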
